A study of Mus musculus with 72 samples.

Results

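The replication-dependent histone genes were followed through the activation of mouse OT-I CD8+ T cells, with glutamine use blocked in 3 ways. They were taken as the genes of the count table whose symbol starts with Hist1h, Hist2h, Hist3h or Hist4h, with 1 pseudogene left out, and with at least 10 counts in at least 4 of the 52 RNA-seq libraries. Of 69 such genes, 55 met this minimum, out of 55487 genes in the table. They comprised 5 H1, 14 H2A, 14 H2B, 9 H3 and 13 H4 genes. Of these, 49 carry Hist1, 3 Hist2, 2 Hist3 and 1 Hist4 symbols. Hist1h2bf lay just inside the minimum, with 4 libraries at 10 counts or more, while Hist2h3c2 lay just outside it with 2 libraries and Hist1h2aj with 1. Of the 14 genes outside the minimum, 7 had no count in any library. Among these, Hist2h2aa1, Hist2h2aa2, Hist2h3c1, Hist2h3b and Hist2h2bb have 100% of their exon bases in other gene models. Reads that overlap several genes were not counted, so the lack of counts does not show that these genes were silent.

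The cells were splenocytes of OT-I mice, whose T cells carry a transgenic receptor for the ovalbumin peptide SIINFEKL. After lysis of red cells they were activated with that peptide at 10 ng/mL and recombinant human IL-2 at 100 IU/mL. The RNA-seq groups were unstimulated cells and cells activated for 4, 24 or 48 h with vehicle, with 1 µM CB-839, with 1 µM DON, or in medium without glutamine, which makes 13 groups of 4 libraries, lettered A to D. CB-839 inhibits glutaminase, the enzyme that turns glutamine into glutamate, and DON is a glutamine analogue that inactivates many enzymes that use glutamine. All activated groups shared the peptide and IL-2. The agents' solvents were DMSO for CB-839 and PBS for DON, and the labels of the vehicle libraries do not say which solvent they held. CUT&RUN, which maps chromatin marks by antibody-directed cleavage, was done at 48 h in the 4 activated conditions, with 2 samples per mark for H3K27ac and H3K27me3, and 1 IgG sample each. Nothing in the labels ties a letter to a mouse or a culture, and every p-value therefore rests on the spread between libraries, which may be technical. The age and number of the mice are not given in the labels.

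Histones are the proteins that DNA is wound around: H2A, H2B, H3 and H4 form the core of the nucleosome, and the linker histone H1 binds where DNA enters and leaves it. The replication-dependent genes lie in clusters, make short mRNAs without introns in S phase to package the new DNA, and their mRNAs normally end in a stem-loop in place of a poly(A) tail. The stem-loop is bound by SLBP, the 3′ end is cut with the help of the U7 snRNP and its proteins LSM10 and LSM11, NPAT drives transcription at the clusters, and the mRNAs are degraded when DNA synthesis stops. T cells start to divide quickly after activation, so these genes are widely read as a sign of S phase in them. Some of the genes can also give longer, polyadenylated mRNAs in cells that do not divide.

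The Hist1 members lie on chromosome 13, between 21715763 and 22043676 and between 23531050 and 23764406, and the Hist2 members on chromosome 3 between 96220361 and 96263311 (mm10, the same assembly as GRCm38). RefSeq promoters (GRCm38.p6) were matched for 50 of the 55 members, all but Hist2h2be, Hist2h4, Hist1h3f, Hist1h2bc and Hist1h3a, and 250 bases before each start were searched on both strands. The motifs were CCAAT (bound by NF-Y), the octamer ATTTGCAT (bound by OCT1), the TATA box as TATAA, the element of H4 promoters as GGTCCG, and the box of H1 promoters as AAACACA. A single stretch may hold several of them. CCAAT was found in 41 of 50 member promoters (82%), compared with 33.8% of all 32851 promoters in the table. It was found in all 5 H1, 14 H2A, 12 H2B and 7 H3 promoters, and in 3 of 12 H4 promoters. GGTCCG was found in 9 of 12 H4 promoters and in 6.72% of all promoters, and AAACACA in 4 of 5 H1 promoters and in 6.25% of all. The octamer was found in 6 of 14 H2A and 4 of 12 H2B promoters and in no H1, H3 or H4 promoter, against 1.6% of all promoters. TATAA was found in 32 member promoters (64%) and in 22.8% of all. These matches are descriptions of the letters, and binding was not measured.

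The 125 bases before the RefSeq start of 7 members are shown, 5′ to 3′ on the gene's strand. They include the member with the highest level per length of each type, plus Hist1h2bk, the member that rose most from unstimulated cells to 24 h, and Hist1h4d, an H4 gene that fell with DON while Hist1h4i did not at 48 h. Capitals mark the motifs searched. For Hist1h3c, the gene model used for the counts starts further upstream, inside the printed stretch.
Hist1h1c (H1), chr13:23738682-23738806, + strand: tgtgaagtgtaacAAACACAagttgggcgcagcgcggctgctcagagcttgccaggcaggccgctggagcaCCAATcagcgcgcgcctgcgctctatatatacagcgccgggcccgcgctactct
Hist1h2ao (H2A), chr13:21810242-21810366, + strand: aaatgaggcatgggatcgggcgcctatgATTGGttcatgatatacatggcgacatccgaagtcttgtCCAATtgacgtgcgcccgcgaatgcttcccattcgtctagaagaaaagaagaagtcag
Hist1h2bj (H2B), chr13:22043073-22043197, + strand: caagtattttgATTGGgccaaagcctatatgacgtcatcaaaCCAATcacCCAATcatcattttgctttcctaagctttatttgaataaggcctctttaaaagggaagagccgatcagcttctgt
Hist1h2bk (H2B), chr13:22035696-22035820, + strand: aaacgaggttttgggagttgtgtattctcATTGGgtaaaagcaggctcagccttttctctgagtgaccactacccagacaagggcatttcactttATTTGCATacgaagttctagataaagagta
Hist1h3c (H3), chr13:23745522-23745646, - strand: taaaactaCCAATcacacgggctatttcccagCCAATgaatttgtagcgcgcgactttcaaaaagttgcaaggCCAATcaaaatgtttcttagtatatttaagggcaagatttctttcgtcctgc
Hist1h4d (H4), chr13:23581443-23581567, + strand: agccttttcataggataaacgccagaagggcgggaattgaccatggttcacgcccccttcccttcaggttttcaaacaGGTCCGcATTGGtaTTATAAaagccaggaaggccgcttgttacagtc
Hist1h4i (H4), chr13:22041363-22041487, - strand: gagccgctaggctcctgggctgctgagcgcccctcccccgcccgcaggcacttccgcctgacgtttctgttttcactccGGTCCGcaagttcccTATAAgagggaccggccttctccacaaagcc

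Library totals ran from 25626587 to 51005409 counts, and levels are given as CPM, the counts of a gene scaled to a common library total. Histone copies are nearly identical and reads that map to several places or genes were not counted, so the level of a single gene is uncertain and can understate it. In 14 members more than 20% of the exon bases also lie in another gene, most of them H2A genes that overlap an unnamed gene model. The libraries were stranded but no strand setting is named for the counting, so reads from such pairs cannot be told apart. Whether RNA with poly(A) tails was selected is not given in the sources used here. A list of RNAs without a poly(A) tail summed to 9.06 to 12.1 CPM in unstimulated cells and 1.66 to 5.39 CPM in every activated library. Of the members, 14 have annotated exons of over 1000 bases in sum, more than a usual histone mRNA, and 41 have exons of up to 1000 bases. CD8 T cell markers summed to 3089 to 8114 CPM in all libraries. In the vehicle group at 48 h, library C stood apart, so counts of members against that group are also given without it. Calls of named genes that were lost without library C are stated, with some of the folds. In bulk RNA, fewer cells that express a gene and less RNA per cell cannot be told apart.

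Within each type the reads were concentrated in a few genes. Per length, as mean CPM per kilobase of exon over the 52 libraries, Hist1h4i was highest at 31.8, followed by the H2A gene Hist1h2ao at 18.4, the H3 gene Hist1h3c at 17.1, the H2B gene Hist1h2bj at 13.2 and the linker histone gene Hist1h1c at 11.4. Hist1h1c encodes H1.2, and all H4 genes encode the same protein.

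Activation was first marked by a fall of these genes at 4 h and then, at 24 h, by a rise of nearly all core histone genes with short exons. The question here was how the genes move when resting T cells are driven into division. Summed over all members, the level was 237, 193, 228 and 246 CPM in unstimulated libraries A to D, and 25.4, 28.1, 32.1 and 26.9 CPM after 4 h with vehicle. At 24 h it was 407, 379, 267 and 305 CPM. At 48 h it was 124, 111, 216 and 131 CPM, with library C highest. The 4 h libraries lay below all others, and the 24 h libraries above the unstimulated ones, without overlap.

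**Figure D1:**
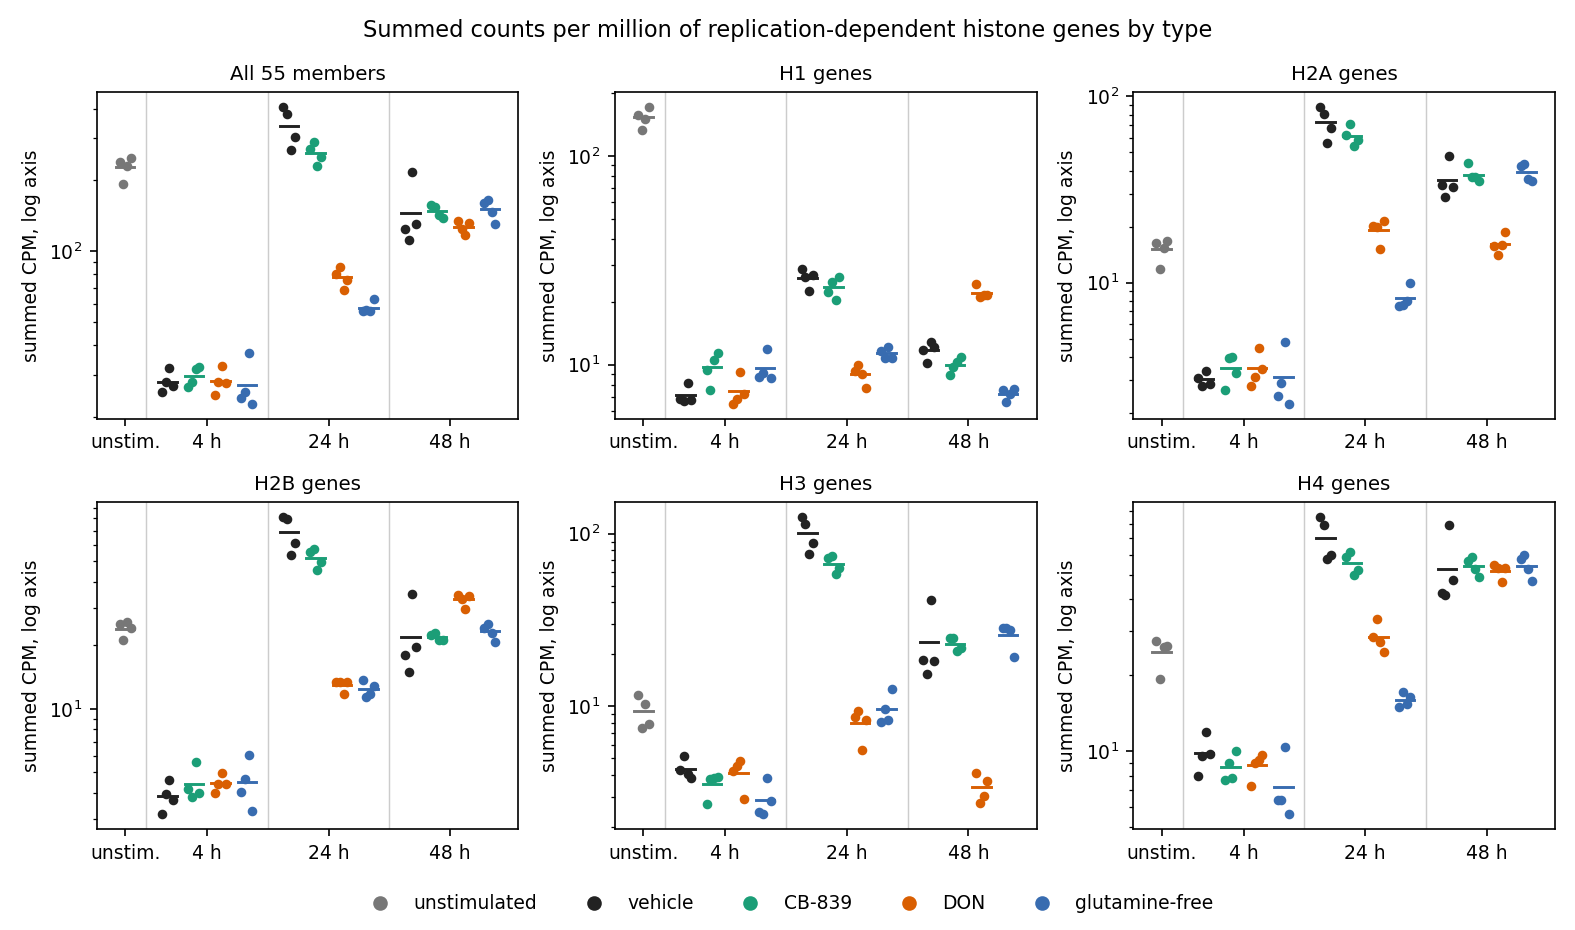
Summed CPM of the members of each type and of all members, on log axes, in the 13 groups, with 1 point for each of the 4 libraries and the group mean as a line. H3 with DON was 5.62 to 9.38 CPM at 24 h and 2.75 to 4.13 CPM at 48 h, below every vehicle library of those times, while H1 with DON at 48 h (21.1 to 24.2 CPM) lay above vehicle (10.2 to 12.9 CPM).

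At 4 h, 37 of the 53 members tested fell against unstimulated cells and none rose (edgeR quasi-likelihood test with Benjamini-Hochberg adjustment over all genes, adjusted p under 0.05), with a median log2 fold change of -1.53. Across all genes, 74.9% changed, 33.9% rising and 41% falling, with a median of -0.21. All 5 H1 genes fell, as did 11 of 13 H2B, 9 of 14 H2A, 9 of 12 H4 and 3 of 9 H3 genes. Hist1h1c was at 138, 120, 135 and 152 CPM in unstimulated libraries A to D and at 5.11, 4.31, 6.05 and 5.08 CPM at 4 h (log2 fold change -4.50 ± 0.11 SE, adjusted p = 1.34e-17 by edgeR). In unstimulated cells it gave 58% to 62.1% of all counts of the members, so the early fall of the sum was mostly that of this gene.

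At 24 h, 38 of 53 members were higher than in unstimulated cells and 9 lower, where 84.2% of all genes changed, 38.7% rising and 45.5% falling. All 9 H3 genes rose, with 10 of 14 H2A, 9 of 13 H2B, 8 of 12 H4 and 2 of 5 H1 genes. Of the 39 tested members with exons up to 1000 bases, 33 rose and 2 fell, with a median log2 fold change of 2.74. Some of these, such as Hist1h2ah (1 to 3 counts in unstimulated cells, 43 to 66 at 24 h) and Hist1h3b, stayed under 10 counts in every unstimulated library. They entered the test only through groups where they were high, so this count and median are limited by the filter. Of the 14 with longer exons, 5 rose and 7 fell, with a median of -0.53. Hist1h2bk was at 0.269, 0.0971, 0.279 and 0.246 CPM in unstimulated cells and at 15.5, 14.6, 11.7 and 13.3 CPM at 24 h (log2 fold change 6.22 ± 0.36 SE, adjusted p = 9.01e-12 by edgeR). Hist1h3c was at 0.828, 1.14, 1.39 and 0.799 CPM and rose to 68.5, 60.9, 41.1 and 46.9 CPM, and Hist1h2ag rose by 5.44 on the log2 scale. In both genes every 24 h library lay far above every unstimulated one. The 3 named genes that fell most at 24 h were Hist1h1c (-3.53), Hist3h2a (-2.56) and Hist3h2ba (-2.53). Hist3h2a and Hist3h2ba are the H2A and H2B genes of the Hist3 cluster on chromosome 11.

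At 48 h, 23 of 53 members were above and 17 below unstimulated cells, where 83.4% of all genes differed, 38.3% above and 45.1% below. Without library C the numbers were 22 and 22 of 54, where 37.4% of all genes were above and 46% below, with a median log2 fold change of 0.10. Both numbers were then near the shares over all genes. Against unstimulated cells, Hist1h2bk was still higher by 4.33 and Hist1h2ao by 3.80 on the log2 scale, and Hist1h1c (-3.86), Hist3h2a (-2.76) and Hist1h2ac (-2.56) were lower. The log2 fold change of 5.67 for Hist1h2af rested on library C, which held 20 CPM while A, B and D held 0.783, 0.623 and 0.844 CPM, and was 2.74 without it. The median over all genes was -0.21, -0.18 and -0.16 at the 3 times, and -0.45, -0.48 and -0.44 with scaling by library totals alone. Changes after activation can be read relative to these values.

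At 4 h the agents made little difference to the few members that could be tested. Only 33 members passed the filter on low counts at that time. With DON none passed the test, as did none of the 18274 genes tested (0% of all genes), and no member had an unadjusted p under 0.05. With CB-839 none of the 33 passed, where 12.5% of all genes did (5.85% higher and 6.64% lower), and 2 had an unadjusted p under 0.05. DESeq2 also called no member in either comparison. With CB-839 a fit that blocked by replicate letter called 1 member, which was higher.

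Without glutamine for 4 h, 3 members rose and 5 fell, where 37.6% of all genes changed, 16.2% rising and 21.4% falling. Hist1h1c was at 6.54, 7, 9.64 and 6.80 CPM, above every vehicle library (log2 fold change 0.55 ± 0.16 SE, adjusted p = 0.0124 by edgeR). The H3 gene Hist1h3a was at 1.24, 1.36, 1.26 and 1.63 CPM, below vehicle at 2.35, 2.28, 1.89 and 2.04 CPM (-0.63 ± 0.20, adjusted p = 0.0169 by edgeR), and Hist1h4d fell by 0.68. The count was 4 without glutamine-free library B and 5 without library A. B cell markers summed to 21.4, 295, 367 and 22.9 CPM in the glutamine-free libraries A to D and to 23.4, 53.3, 36.4 and 138 CPM in the vehicle libraries, and myeloid markers to 17.3, 59.0, 322 and 13.1 CPM against 18, 14.4, 41.2 and 20.7 CPM. The part of other cells in these values was not tested.

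At 24 h, DON and the lack of glutamine each brought down nearly all members, and CB-839 a smaller number that depended on the fit. The 3 comparisons share the vehicle libraries, so their lists are not independent. Some members, such as Hist1h2ah (43 to 66 counts with vehicle, 1 to 8 with DON) and Hist1h3b, reached 10 counts at 24 h only with vehicle or CB-839. They entered the test only through groups where they were high. With DON, 51 of 54 members fell and 1 rose, where 58% of all genes changed and 29.9% fell, and the median log2 fold change was -3.24 over the members and -0.01 over all genes. Without glutamine, 50 of 54 fell and 3 rose, where 58.9% of all genes changed, 30% rising and 28.9% falling, with a median of -2.73. Summed over all members, the level was 79.8, 86.0, 68.7 and 75.8 CPM with DON and 56, 56.4, 55.7 and 62.6 CPM without glutamine, all below the lowest vehicle library (267 CPM). Markers of other cells differed too. Myeloid markers summed to 2.99 to 4.95 CPM with vehicle, 10.7 to 20.9 CPM with DON and 4.81 to 11.1 CPM without glutamine at 24 h, and B cell markers to 2.57 to 4.77, 4.78 to 15.6 and 2.81 to 18.1 CPM. Most of each myeloid sum was Cd68, a lysosomal membrane protein gene, with means of 12.2 CPM with DON, 5.08 CPM without glutamine and 3.08 CPM with vehicle. With DON, Lyz2 was higher than with vehicle (1.05 against 0.239 CPM) and Cd14 lower (0.0216 against 0.129 CPM). CD4 T cell markers summed to 27.8 to 37.2 CPM without glutamine, where vehicle had at most 12.8 CPM and DON 12.5 to 13.8 CPM. Almost all of the CD4 T cell sum without glutamine was Zbtb7b, a transcription factor gene of that lineage, with a mean of 30.9 CPM (3.20 CPM with vehicle), while Cd4 was at 0.0368 CPM. The part of other cells in the histone values was not tested.

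H3 had the lowest median of the 5 types in both comparisons. All 9 fell with DON (median -3.71) and all 9 without glutamine (median -3.96). Their summed level was 125, 114, 76.2 and 88.9 CPM with vehicle, 8.67, 9.38, 5.62 and 8.31 CPM with DON, and 8.11, 9.60, 8.38 and 12.6 CPM without glutamine. All 13 H4 genes fell with DON (median -3.25) and 12 without glutamine (-2.54). All 5 H1 genes fell in both (-2.90 and -1.78), 13 of 14 H2A genes fell in both (-2.90 and -3.11), and 11 of 13 H2B genes fell in both (-3.04 and -2.22).

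**Figure D2:**
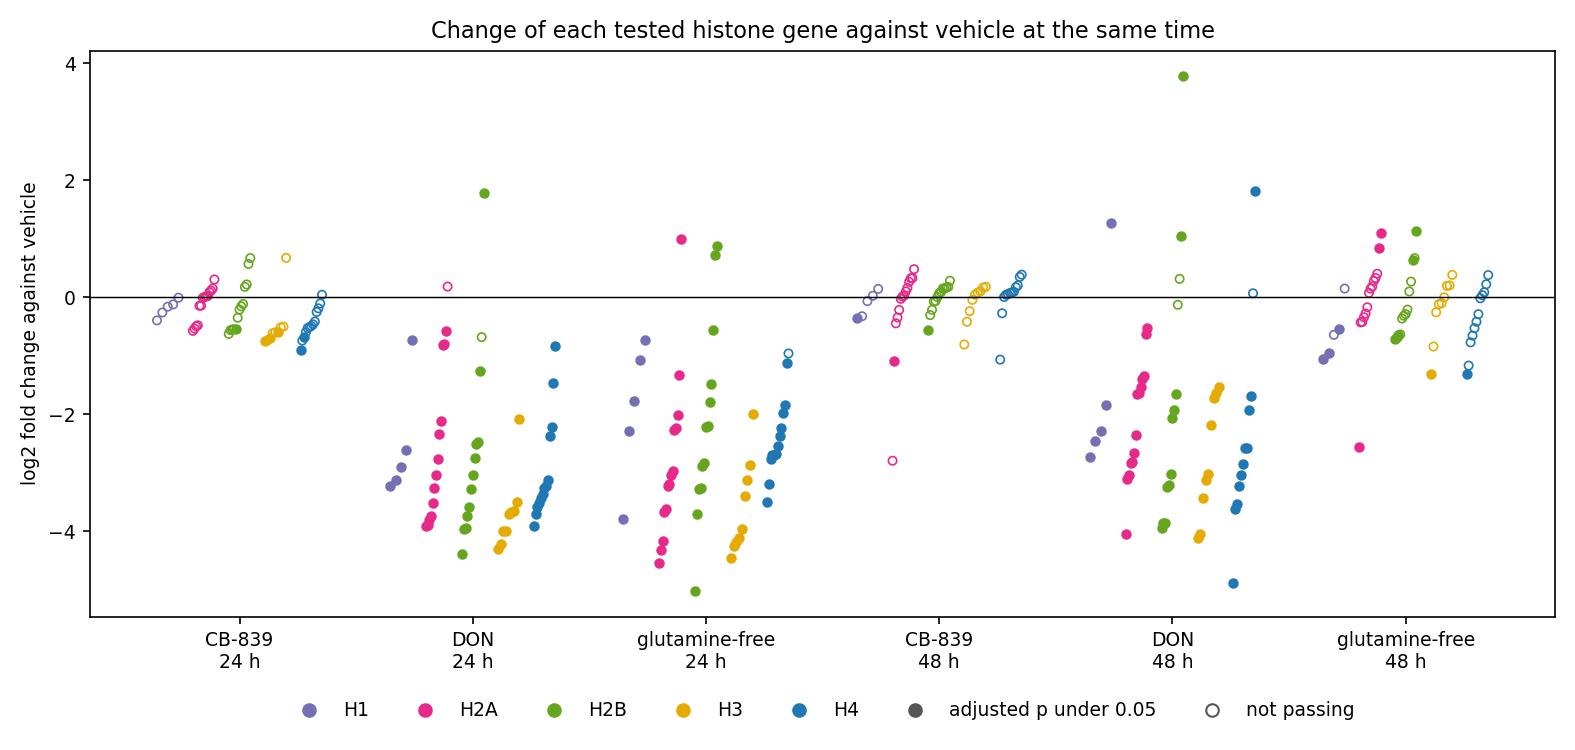
Log2 fold change of each tested member against vehicle at the same time, with 1 point per gene, coloured by type, for each of the 3 treatments at 24 h and 48 h; filled points passed the test at an adjusted p under 0.05, open points did not, and the horizontal line marks 0. At 24 h nearly all members lay below 0 with DON and without glutamine, and at 48 h this was so with DON only, where Hist2h2be (3.77) lay far above the others.

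Hist1h3c was at 4.33, 4.60, 2.66 and 4.18 CPM with DON at 24 h and at 2.32, 3.72, 3.07 and 4.46 CPM without glutamine, and no library of either overlapped vehicle, which was at 41.1 to 68.5 CPM. Its log2 fold change with DON was -3.99 ± 0.20 SE (adjusted p = 3.15e-11 by edgeR). Hist1h2bm, at 3.59 to 6.23 CPM with vehicle and 0.161 to 0.402 CPM with DON, fell by 4.39, and the H3 gene Hist1h3i fell by 4.30. Without glutamine, the 3 named genes that fell most were Hist1h2bk, from 11.7 to 15.5 CPM with vehicle to 0.379 to 0.525 CPM (-5.02 ± 0.17 SE, adjusted p = 3.89e-15 by edgeR), Hist1h2ag (-4.32) and Hist1h3g (-4.25).

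Hist1h4i and Hist1h2ao, the members with the highest levels per length, fell less with DON than most. Hist1h4i was at 46.1, 41.5, 33.7 and 33.3 CPM with vehicle and at 25, 29, 23.9 and 20.8 CPM with DON (log2 fold change -0.84, the smallest fall of the 13 H4 genes), so the groups did not overlap. Without glutamine it was at 8.96, 11.7, 10.4 and 11.2 CPM. Hist1h2ao was at 25.3, 16, 11.8 and 14.4 CPM with vehicle, at 13.2, 10.7, 9.73 and 10.6 CPM with DON and at 1.72, 1.61, 1.77 and 2.96 CPM without glutamine. DON overlapped vehicle in this gene and the glutamine-free libraries did not. In the direct test of glutamine-free medium against DON at 24 h, 15 of 54 members were higher and 10 lower, where 58.9% of all genes differed, 28.7% higher and 30.2% lower. The number higher was thus near the share over all genes, and the number lower was below it. Hist1h2ap (-2.64), Hist1h2ao (-2.38) and Hist1h4i (-1.14) were the named genes that were lower without glutamine. Hist1h3a (1.72), the linker histone gene Hist1h1d (1.55) and Hist1h4c (1.36) were higher.

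The single member that rose with DON at 24 h was Hist2h2be (ENSMUSG00000068854.7), which encodes a variant H2B known from olfactory neurons and has 1 exon of 2620 bases at chr3:96221119-96223738 on the + strand. It was at 1.53, 1.36, 1.28 and 1.55 CPM with vehicle and at 6.02, 5.58, 5.39 and 5.58 CPM with DON (log2 fold change 1.79 ± 0.14 SE, adjusted p = 2.24e-09 by edgeR). Without glutamine it was at 3.31, 2.20, 2.51 and 2.15 CPM (0.72 ± 0.14 SE, adjusted p = 0.000232 by edgeR). Every library of both treatments lay above every vehicle library. The other 2 members that rose without glutamine were Hist3h2a (0.99) and Hist3h2ba (0.87), both with under 1.3 CPM in every library of that group.

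With CB-839 at 24 h, 6 of 54 members fell and none rose, where 4.95% of all genes changed, 2.47% rising and 2.48% falling. They were Hist1h4h (-0.90), Hist1h3f (-0.75), Hist1h3e (-0.70), Hist1h4d (-0.68), Hist1h3c (-0.60) and Hist1h2bk (-0.54), so 5 of them were H3 or H4 genes. Hist1h3c was at 38.5, 40.9, 32.7 and 33.2 CPM, below the lowest vehicle library (41.1 CPM). In this fit 24 members had an unadjusted p under 0.05. The replicate letters paired these libraries, and with the letter as a block 18 members fell, where 1840 of the 16269 genes tested changed. DESeq2 called 13 members, all lower, where it called 1295 of all genes. The count of 6 depended on single libraries: 1 member fell without vehicle library B, 2 without vehicle library A, 2 without CB-839 library C, 13 without vehicle library C and 12 without DON library D, which enters the estimate of spread. The share over all genes was not taken in these refits. Against CB-839, DON lowered 52 of 54 members and raised 1, where 59.7% of all genes differed and 30.8% were lower.

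At 48 h the members fell with DON, while without glutamine their level was near that of vehicle. Some members, such as Hist1h4n (22 to 37 counts with vehicle, 1 to 6 with DON) and Hist1h2bm, stayed under 10 counts in every DON library at 48 h. They entered the 48 h tests only through groups where they were high, which limits all counts and medians involving DON at that time. With DON, 46 of 53 members fell and 4 rose, where 71.2% of all genes changed and 35.6% fell, with a median log2 fold change of -2.46 against 0.00 for all genes. Without library C of the vehicle group, 46 fell and 5 rose, where 36.1% and 38% of all genes did, with a median of -1.96. All 9 H3 genes fell (median -3.02), with all 14 H2A genes (-2.0), 10 of 12 H4 genes (-2.71), 9 of 13 H2B genes (-2.07) and 4 of 5 H1 genes (-2.28). Without library C as many genes of each type fell, with medians of -2.59 for H3, -1.57 for H2A, -2.25 for H4, -1.67 for H2B and -2.22 for H1. Summed over all members, the level did not show this: it was 134, 124, 117 and 131 CPM with DON, within the range of vehicle, since a few genes with many counts did not fall.

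H3 had no such gene, and its summed level was 4.13, 2.75, 3.03 and 3.70 CPM with DON and 18.6, 15.4, 41.4 and 18.4 CPM with vehicle. Hist1h3c was at 1.84, 0.957, 1.23 and 1.91 CPM with DON and at 8.73, 7.64, 19.0 and 9.73 CPM with vehicle, with no overlap. The named genes that fell most were Hist1h4c, at 0.0484 to 0.0904 CPM with DON and 1.01 to 3.56 CPM with vehicle (-4.88 ± 0.54 SE, adjusted p = 2.11e-07 by edgeR), Hist1h3f (-4.11) and Hist1h3a (-4.05). In the DON libraries Hist1h4c had 2 to 3 counts and Hist1h3a 3 to 8, so the size of their folds against DON at 48 h is uncertain. Hist1h3f was at 1.79, 0.647, 6.21 and 1.32 CPM with vehicle, with library C highest, and its log2 fold change without C was -3.11. Hist1h2bj was at 4.90, 3.26, 10.6 and 5.29 CPM with vehicle and at 0.723, 0.479, 0.372 and 0.339 CPM with DON, again with no overlap.

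The 4 members that rose with DON at 48 h were Hist2h2be, Hist1h4k, Hist1h1c and Hist1h2be. Hist2h2be was at 28.1, 27.2, 24.2 and 27.8 CPM, compared with 1.68, 1.73, 1.64 and 1.86 CPM with vehicle (log2 fold change 3.77 ± 0.09 SE, adjusted p = 1.48e-16 by edgeR), and its level with DON was the highest of all 13 groups. Unstimulated cells held 5.90, 5.34, 4.77 and 5.47 CPM. In CB-839 libraries it was at 1.97, 1.62, 1.70 and 1.71 CPM, within or close to the range of vehicle.

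**Figure D3:**
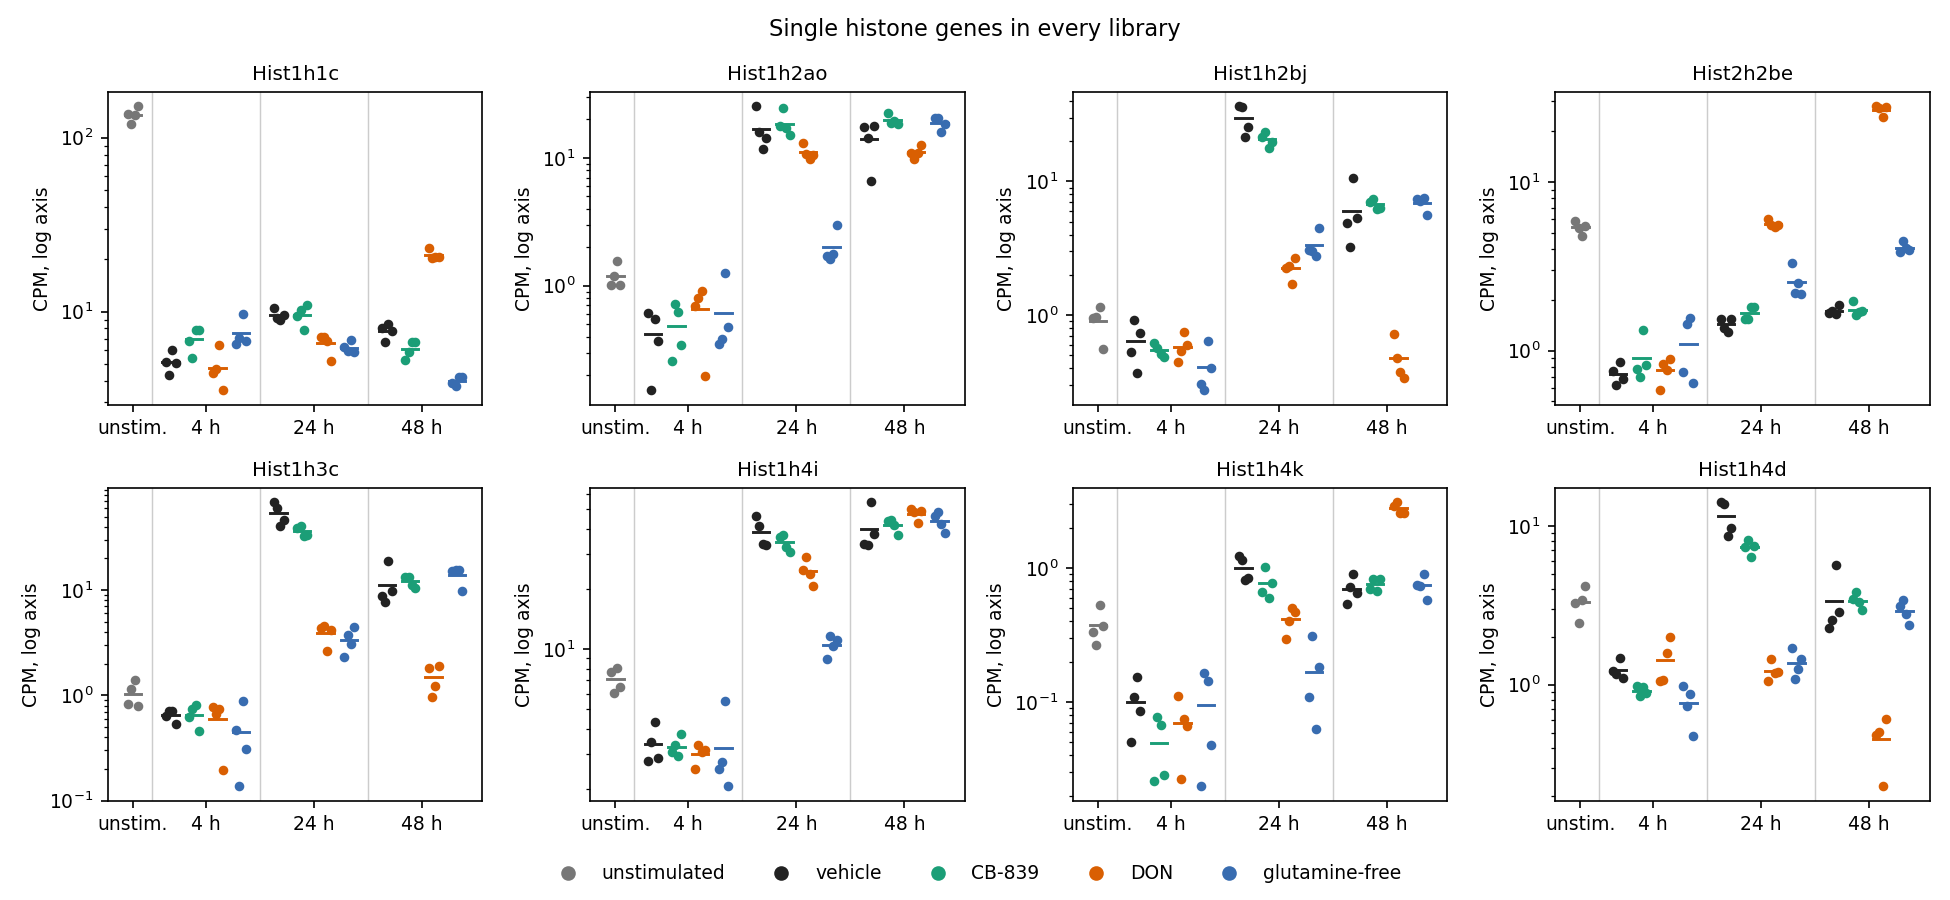
CPM of single members in every library of the 13 groups, on log axes, with 1 point per library and the group mean as a line. Hist2h2be reached 24.2 to 28.1 CPM with DON at 48 h, above all other groups, whereas Hist1h3c with DON at 48 h (0.957 to 1.91 CPM) lay below vehicle.

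Hist1h1c was at 23.2, 20.4, 20.6 and 20.7 CPM with DON and at 8.01, 6.71, 8.47 and 7.71 CPM with vehicle (1.27 ± 0.09 SE, adjusted p = 5.84e-10 by edgeR), with no overlap. Without Hist1h1c, the other 4 H1 genes summed to 0.781 to 1.02 CPM with DON and 3.45 to 4.45 CPM with vehicle. Hist1h4k was at 2.92, 3.1, 2.57 and 2.57 CPM with DON and at 0.537, 0.719, 0.903 and 0.647 CPM with vehicle (1.81 ± 0.18 SE, adjusted p = 3.14e-08 by edgeR). Hist1h2be, whose gene model has 5 exon entries and 4446 exon bases and shares 11.2% of them with Hist1h1e and another gene model, was at 2.62, 2.09, 2.03 and 3.12 CPM against 0.895, 0.695, 1.55 and 1.10 CPM (log2 fold change 1.04). So 3 of the 4 were among the 14 members with exons of over 1000 bases, of which 10 fell, while of the 39 with shorter exons 36 fell and only Hist1h4k rose. The members that did not pass were Hist1h4i, Hist1h2bh and Hist1h2bp. Hist1h4i was at 50.1, 48.5, 42.9 and 48.8 CPM with DON and at 33.7, 33.2, 54.3 and 37.6 CPM with vehicle. It was above every vehicle library except C, and gave 36.7% to 39% of the members' counts. Its log2 fold change was 0.07 ± 0.14 SE (adjusted p = 0.678 by edgeR). Without vehicle library C it was 0.28 ± 0.08 SE (adjusted p = 0.00387 by edgeR), and Hist1h4i was then the fifth member that rose. The other 12 H4 members summed to 3.83 to 4.81 CPM with DON and 8.46 to 24.6 CPM with vehicle.

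As a result the types contributed to the members' counts in other proportions. H3 made up 2.21% to 3.09% of them with DON at 48 h and 13.9% to 19.2% with vehicle. H2A made up 11.3% to 14.2% with DON and 22.2% to 27% with vehicle. H2B made up 25.5% to 26.7% with DON and 13.5% to 16.2% with vehicle, and H1 16.4% to 18.4% against 5.96% to 9.45%. The libraries of both conditions did not overlap in any of these 4 shares. These are shares of reads, and longer genes give more reads. The larger H2B and H1 shares do not mean that these types rose as a whole. Most H2B and H1 genes fell with DON, while Hist2h2be and Hist1h1c, with many counts, rose.

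Markers of other cells differed in the same comparison. Myeloid markers summed to 23.7 to 25.3 CPM with DON and 2.17 to 2.94 CPM with vehicle at 48 h, and B cell markers to 9.44 to 11.1 and 2.68 to 4.08 CPM. In the myeloid list almost all of this was Cd68, a lysosomal membrane protein gene, with a mean of 23.2 CPM, while Lyz2 was at 1.01, Csf1r at 0.140 and S100a8 at 0.00715 CPM. In the B cell list most was Cd79b, a B cell receptor subunit gene, at 7.77 CPM. Their part in the histone values was not tested.

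Without glutamine at 48 h, 9 of 53 members fell and 4 rose, where 54.3% of all genes changed, 28% rising and 26.3% falling, and the median log2 fold change was -0.21. Without vehicle library C, 5 fell and 13 rose, where 27.3% and 28.8% of all genes did, and the median was 0.17. Summed over all members, the level was 160, 164, 147 and 130 CPM, above vehicle libraries A and B and below C. Hist1h3c was at 15.1, 15.5, 15.4 and 9.79 CPM, within the range of vehicle, and was among those that rose without library C (log2 fold change 0.60). Hist1h1c was at 3.90, 3.71, 4.23 and 4.20 CPM, below every vehicle library (-1.05 ± 0.10 SE, adjusted p = 8.23e-08 by edgeR), and Hist1h1a and Hist1h1e also fell, so 3 of 5 H1 genes fell. Without library C the log2 fold change of Hist1h1e went from -0.55 to -0.46 and no longer passed (adjusted p = 0.0513 by edgeR). Hist2h2be was at 3.84, 4.45, 4.03 and 3.94 CPM and rose (1.13 ± 0.10 SE, adjusted p = 1.28e-08 by edgeR), as did Hist1h2ai (0.84), Hist3h2ba (0.64) and Hist3h2a (1.10). The log2 fold change of -2.57 for Hist1h2af was carried by vehicle library C and reversed without it. Hist1h2bk was lower (log2 fold change -0.68, adjusted p = 0.0395 by edgeR). It no longer passed without vehicle library C, nor without glutamine-free library C or D. CD4 T cell markers summed to 30.6 to 38.4 CPM without glutamine and 7 to 8.33 CPM with vehicle. This was again Zbtb7b, with a mean of 31.9 CPM against 4.52 CPM, while Cd4 (0.0538 against 0.0969 CPM) and Cd40lg (1.39 against 2.78 CPM) were lower and Foxp3 was at 1.14 against 0.215 CPM. Their part in the histone values was not tested.

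With CB-839 at 48 h, 3 of 53 members fell and none rose, where 15.2% of all genes changed, 8.5% rising and 6.73% falling. They were Hist3h2a (-1.08), Hist1h2bc (-0.56) and Hist1h1c (-0.36). Without vehicle library C, 7 rose and 2 fell, where 11.9% and 10.4% of all genes did, so the number that rose was near the share over all genes. Hist1h2bc then no longer passed (-0.40). Without CB-839 library A or B none passed. Set against CB-839 directly at 48 h, DON lowered 43 of 53 members and raised 4, where 70.4% of all genes differed. Against DON, glutamine-free medium gave 43 members a higher and 4 a lower level, where 68.6% of all genes differed, 34.6% higher and 34.1% lower. The 4 that were lower were Hist2h2be (-2.64), Hist1h1c (-2.32), Hist1h4k (-1.83) and Hist1h2be (-0.78), and the named genes that were higher were Hist1h4c (4.35), Hist1h3a (4.25) and Hist1h2bj (3.95).

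From 24 h to 48 h the members fell with vehicle and with CB-839 and rose without glutamine. With vehicle 36 of 55 fell and 2 rose, where 42.1% of all genes changed, and the median log2 fold change was -1.59. Without vehicle library C, 40 fell and 1 rose, where 20.1% and 20.7% of all genes did. With CB-839 39 fell and 1 rose, where 48.0% of all genes changed. With DON 23 fell and 7 rose, where 63.5% of all genes changed. Those that rose with DON included Hist1h4k (2.72), Hist2h2be (2.23), Hist1h1c (1.66), Hist1h2be (1.64) and Hist1h4i (0.92), while Hist1h3a fell by 3.08 and Hist1h2bj by 2.25. Without glutamine 35 rose and 3 fell, where 53.6% of all genes changed. The 3 that fell were the H1 genes Hist1h1e (-1.0), Hist1h1d (-0.88) and Hist1h1c (-0.63), and the named genes that rose most were Hist1h2ap (3.37), Hist1h2ao (3.23) and Hist1h2af (3.22).

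The difference between these changes was tested as an interaction. The 24 h to 48 h change without glutamine exceeded that with vehicle in 43 of 55 members and was below it in none, where it differed in 29.1% of all genes and was higher in 16.5%. Hist1h3h (4.58), Hist1h2ag (4.51) and Hist1h2bk (4.35) differed most. Without vehicle library C, 45 members were higher, where 17.6% of all genes were. With DON the change was higher in 12 members and lower in 3, where 40.3% of all genes differed, led by the H2B genes Hist1h2bh (3.59) and Hist1h2be (3.49). The shares of all genes were 18.2% higher and 22.1% lower, so the number of members higher was near that share and the number lower was below it. Without vehicle library C, 17 members were higher and 2 lower, where 20.5% and 23.9% of all genes were. Hist1h2af, among the 3 that were lower (-3.27), no longer passed without that library, and failed in 12 of 32 refits with a library left out. With CB-839 no member passed edgeR's test, where 3.5% of all genes did, and 15 had an unadjusted p under 0.05. DESeq2 called 1. Without vehicle library C, 12 members were higher and none lower, where 3.37% of all genes were higher and 2.3% lower.

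Genes that act on histones or their mRNAs had smaller median changes than the members. The list of 15 genes for histone mRNA processing and transcription was chosen with results of these data known, and holds 10 genes that fell and 3 that rose with DON at 24 h (median -0.27), and 12 that fell and 2 that rose at 48 h (-0.45). Without glutamine 12 fell and 1 rose at 24 h (-0.37) and 5 fell and 1 rose at 48 h (-0.10). Of all genes, 29.9% fell and 28.1% rose with DON at 24 h and 35.6% each at 48 h, and without glutamine 28.9% fell and 30% rose at 24 h and 26.3% fell and 28% rose at 48 h. The same shares apply to the chaperone, replication-independent histone and S phase genes. Slbp, the stem-loop binding protein gene, had a mean of 169.7 CPM with vehicle, 166.8 CPM with DON and 110.7 CPM without glutamine at 24 h, and of 178.0, 109.5 and 176.8 CPM at 48 h. It fell with DON by 0.21 at 24 h and by 0.89 at 48 h, and without glutamine by 0.72 at 24 h. Lsm10 fell by 1.07 with DON at 48 h, whereas Lsm11, which encodes the other U7 protein, rose by 1.29, from a mean of 23.8 to 66.3 CPM. Npat fell by 0.51 with DON at 48 h and did not pass at 24 h.

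Of the 20 histone chaperone genes, 11 fell and 2 rose with DON at 24 h and 16 fell and 1 rose at 48 h, and without glutamine 15 fell and 2 rose at 24 h and 10 fell and 3 rose at 48 h. With DON at 24 h, 58% of all genes changed, so the number of chaperone genes that changed was near the share over all genes. Nasp, whose protein holds H3 and H4 before assembly, fell by 1.14 with DON at 48 h, and Chaf1b, a subunit of the assembly factor CAF-1, fell by 1.11. Asf1b fell by 1.77 without glutamine at 24 h and with DON had log2 fold changes of 0.01 at 24 h and -0.07 at 48 h, which did not pass. Tonsl, whose protein recognises newly made histones behind the fork, rose with DON by 0.88 at 48 h.

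The replication-independent histone genes, whose mRNAs carry poly(A) tails and are made outside S phase too, were mixed. With DON 2 rose and 6 fell of 10 tested at 24 h, and 3 rose and 4 fell of 11 at 48 h. Without glutamine 2 rose and 4 fell at 24 h, and 7 rose and 2 fell at 48 h. H1f0, a linker histone gene linked to cells that leave division, had a mean of 48.3 CPM with vehicle at 48 h and 3.7 CPM with DON (log2 fold change -3.90). H3f3b, a gene for the replacement histone H3.3, fell by 1.58 with DON at 48 h and had a log2 fold change of -0.01 without glutamine, which did not pass. H2afv, for H2A.Z.2, rose by 0.89 with DON and by 1.49 without glutamine at 48 h. Cenpa, for the centromeric H3, fell by 3.91 without glutamine at 24 h.

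Genes of DNA replication are transcribed in S phase too and were set beside the members. The 32 genes listed, among them the MCM helicase genes, summed to 7600 to 7703 CPM with vehicle at 24 h, 7021 to 7676 CPM with DON and 3478 to 4237 CPM without glutamine. The 41 members with exons up to 1000 bases summed to 347, 322, 223 and 255 CPM with vehicle, 59.9, 65.8, 50.1 and 58.3 CPM with DON, and 33.8, 38.1, 34.5 and 43.8 CPM without glutamine. With DON at 24 h, 15 of the 32 S phase genes fell and 4 rose, with a median log2 fold change of -0.14, beside -3.44 for the members with exons up to 1000 bases. Without glutamine all 32 fell, with a median of -1.44 beside -2.93. At 48 h 27 fell with DON (-0.73) beside -2.81. No test compared the lists.

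**Figure D4:**
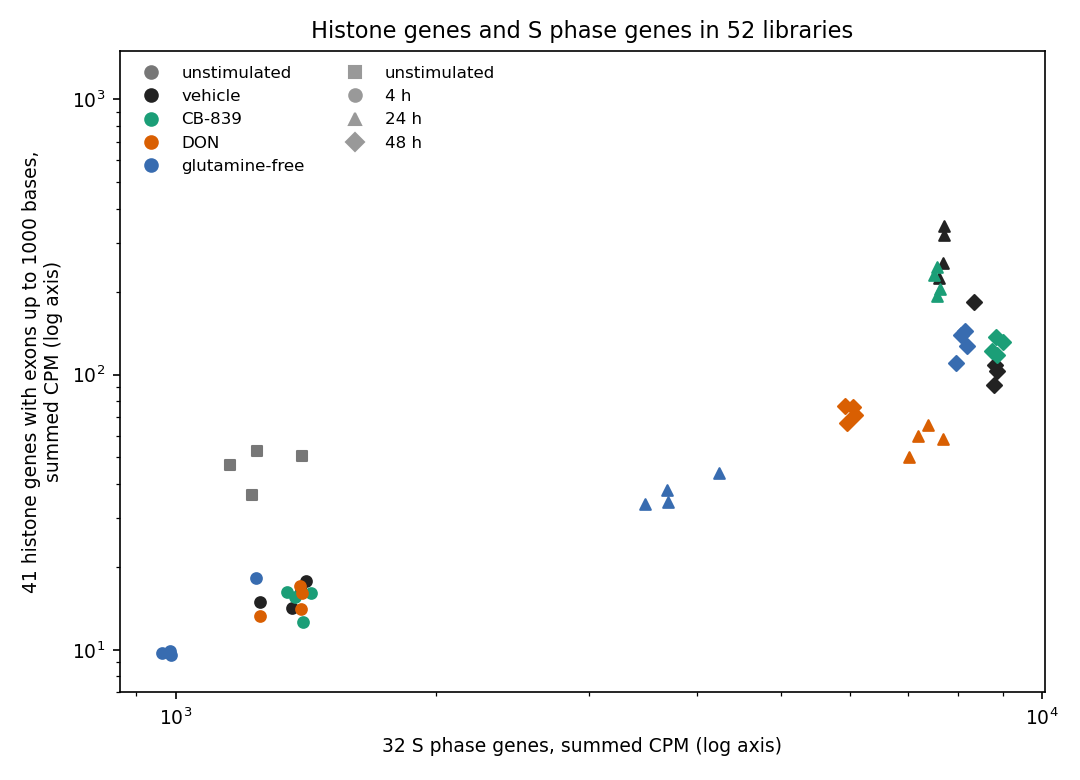
Summed CPM of the 41 members with exons up to 1000 bases against the summed CPM of 32 S phase genes in the 52 libraries, both on log axes, with 1 point per library. The 24 h DON libraries had S phase sums of 7021 to 7676 CPM, near the 7600 to 7703 CPM of vehicle, with histone sums of 50.1 to 65.8 CPM against 223 to 347 CPM.

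At 48 h the H3K27ac peaks, a mark of active promoters and enhancers, covered nearly all member promoters with vehicle and without glutamine. The deposited lists hold 9681 peaks for vehicle, 6687 for glutamine-free medium, 117 for CB-839 and 33 for DON, so the lists differ greatly in length, and a missing peak can mean only that it did not pass in a short list. Each list merges 2 samples, so no difference between conditions could be tested. With vehicle, 52 of 55 members (94.5%) had a peak within 1000 bases of their start, compared with 42% of the genes tested at 48 h. Without glutamine 50 members (90.9%) had one, compared with 28.6% of genes. The members share peaks, which came to 25 distinct peaks with vehicle and 24 without glutamine. The 3 members with no peak with vehicle were Hist4h4, Hist3h2ba and Hist3h2a.

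**Figure D5:**
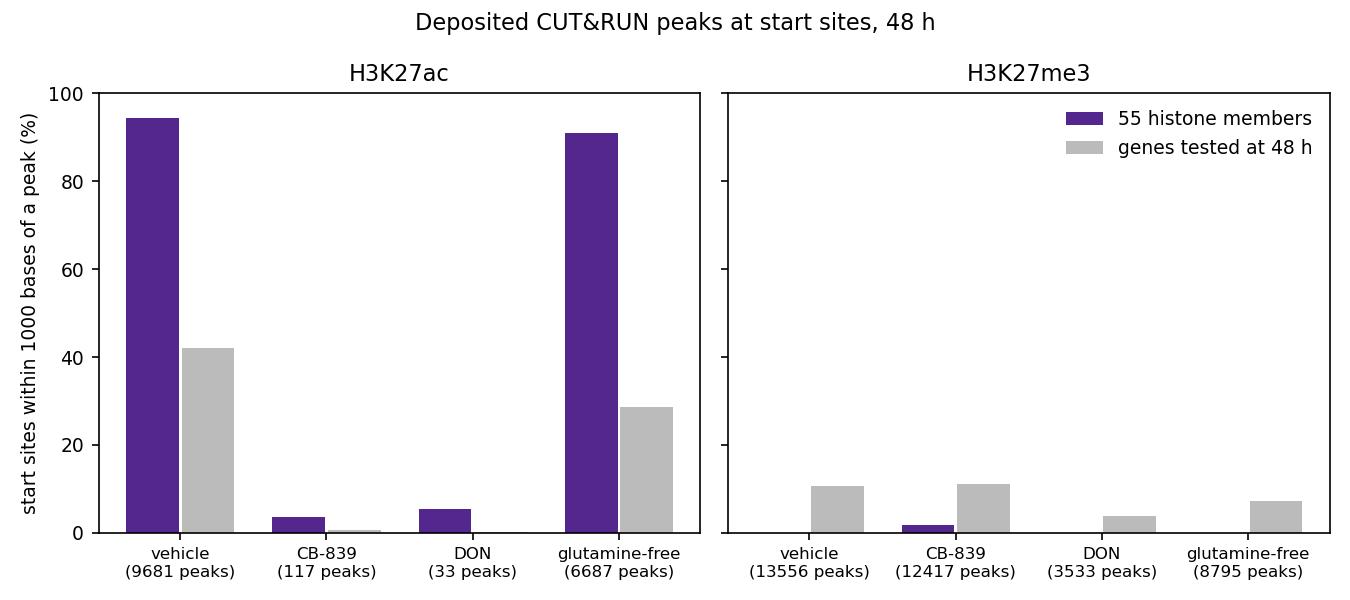
Percent of starts within 1000 bases of a deposited peak at 48 h, for the 55 members and for the 16173 genes tested at 48 h, by condition, for H3K27ac and H3K27me3; the number of peaks in each list is under the condition. With vehicle 94.5% of members and 42% of genes had an H3K27ac peak, and at most 1.82% of members an H3K27me3 peak.

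The strongest peak at the members was among the strongest of its list. With vehicle, chr13:23738018-23753963 was 15.9 kb long, had the second highest signal of the 9681 peaks (29.33 on the authors' scale) and covered the starts of Hist1h1c, Hist1h3c, Hist1h2bb, Hist1h2ab and Hist1h3b. Without glutamine, chr13:23737930-23753275, with a signal of 33.54, was likewise ranked 2 of 6687. With CB-839 2 members (3.64%, compared with 0.643% of genes) had a peak, Hist1h3c and Hist1h2bb, in chr13:23744083-23750024, ranked 69 of 117. With DON 3 members (5.45%, compared with 0.21% of genes) had one. Hist1h1c, which rose with DON at 48 h, had the peak chr13:23738129-23739262 (rank 21 of 33), and Hist1h4f and Hist1h1d, whose RNA fell with DON, shared chr13:23550718-23556201 (rank 15 of 33). Hist2h2be, the member that rose most, had an H3K27ac peak with vehicle (chr3:96218609-96222322) and without glutamine, and none in the DON list.

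H3K27me3, a mark of Polycomb-repressed genes, was nearly absent from the members. No member start lay within 1000 bases of an H3K27me3 peak with vehicle, with DON or without glutamine, where 10.6%, 3.74% and 7.2% of genes did. With CB-839 1 member, Hist3h2ba, had one (1.82%, compared with 11% of genes), in chr11:58947997-58950374. The H3K27me3 lists held 13556 peaks with vehicle, 12417 with CB-839, 3533 with DON and 8795 without glutamine.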

How the data were processed

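RNA-seq was measured in 52 libraries and CUT&RUN in 20 samples. The authors deposited a table of raw counts per GENCODE M25 gene (featureCounts 2.0.1, per the file header, with no option for multi-mapping or overlapping reads) and merged peak lists per mark and condition, in which the deposited values are a peak signal and, per the files, the -log10 of the IDR, used by the authors at 0.05; STAR, Bowtie2, MACS2 and mm10 are named in the submitters' processing notes. The members and gene lists were chosen with earlier results of these data known.

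The counts were tested with edgeR 4.0.16 (R 4.3.3, limma 3.58.1; TMM scaling, filterByExpr, robust glmQLFit, glmQLFTest) within the unstimulated and vehicle libraries, within each time, and over 24 h and 48 h together, with Benjamini-Hochberg adjustment over all genes tested and a threshold of 0.05. SE is the fitted log2 fold change's standard error. The procedure was tested on simulated counts. Depth (25626587 to 51005409 counts) sets the precision of low genes.

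Named members were the 3 with the highest level per length of each type and, per comparison, up to 3 called in each direction with the largest change and a mean log2 CPM of at least 0; others were named after their values were seen. Replicate letters were taken to pair libraries where each letter's deviations from the group means correlated above 0.1. This held at 4 h for CB-839 (0.57 to 0.67) and DON (0.21 to 0.66) and at 24 h for CB-839 (0.59 to 0.76), each against vehicle. It also held for DON set against CB-839 at 48 h (0.17 to 0.31), for the glutamine-free and DON libraries at 24 h (0.12 to 0.36), and between 24 h and 48 h with CB-839 (0.22 to 0.70). Peaks were matched to starts within 1000 bases. Alternatives were other scaling, no count filter, DESeq2 1.42.0, a replicate block, other sets of libraries, each library left out, and other peak settings.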

Additional observations from a re-analysis of the deposited data

Results flagged for a closer look

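The 24 h to 48 h change differed from that with vehicle in 12 members that were higher and 3 that were lower with DON, where 18.2% of all genes were higher and 22.1% lower. The number higher was thus near the share over all genes, and the number lower was below it. Without vehicle library C at 48 h, 17 members were higher and 2 lower with DON, where 20.5% of all genes were higher and 23.9% lower. Without glutamine the change differed in 43 members, all higher, where 16.5% of all genes were higher and 12.6% lower. Without that library it differed in 45, where 17.6% of all genes were higher and 13.9% lower. Both were tested as an interaction in edgeR.

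Among 169 groups of 4 libraries searched (13 sums and single genes in 13 groups), 19 held a library whose gap to the nearest other was larger, relative to the group's range, than Dixon's 95% critical value, which chance exceeds in about 1 in 20 groups. Vehicle library C at 48 h was high in the H3 sum (41.4 CPM, others 15.4 to 18.6), the H4 sum (78.9 CPM, others 41.7 to 47.7) and Hist1h2af (20 CPM, others 0.623 to 0.844). Glutamine-free library C at 4 h was high in the H1 sum (11.9 CPM), the H4 sum (10.4 CPM), Hist1h1c (9.64 CPM), Hist1h2ao (1.26 CPM) and Hist1h2af (0.807 CPM). Its myeloid markers summed to 322 CPM and its B cell markers to 367 CPM. Glutamine-free library D stood apart at 24 h in the sum of all members (62.6 CPM, others 55.7 to 56.4) and Hist1h2ao (2.96 CPM), both high, and at 48 h in the H3 sum (19.3 CPM, others 27.6 to 28.6), Hist1h3c (9.79 CPM) and Hist1h2bj (5.64 CPM), all low. DON library A at 48 h was high in the H1 sum (24.2 CPM) and Hist1h1c (23.2 CPM), and DON library C at 24 h was low in the H2B sum (11.7 CPM, others at 13.4). The remaining ones were the H1 sum of vehicle library C at 4 h (8.19 CPM, high), the H3 sum of CB-839 library A at 4 h (2.71 CPM, low) and the H4 sum of unstimulated library B (19.3 CPM, low).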

How the results depend on the processing

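Of 23 counts of changed members, all 23 stayed within 1.5 times of the reported count with RLE scaling and with library totals alone, 22 without the count filter, and 21 each with DESeq2 and with the replicate block. For CB-839 at 24 h the count of 6 became 18 with the replicate block, 13 with DESeq2, 2 when only the 8 libraries concerned were fitted and 0 when all 52 were. For CB-839 at 4 h the count of 0 became 1 with the replicate block and in the fit of 8 libraries, and 2 in the fit of all. For CB-839 at 48 h the count of 3 became 1 without the filter and 0 in the fit of 8 libraries. For glutamine-free medium at 4 h the count of 8 became 13 in the fit of all libraries. For the interaction with CB-839 DESeq2 called 1. The replicate block changed no other count by more than 1.5 times.

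With each library left out in turn, the counts ran from 4 to 9 for glutamine-free medium at 4 h, 1 to 13 for CB-839 at 24 h, 0 to 9 for CB-839 at 48 h and 0 to 12 for the CB-839 interaction, and the highest of the last 2 came without vehicle library C. The other counts moved by less than 1.5 times, for example 50 to 53 for DON at 24 h and 48 to 51 at 48 h. Over the 94 named gene results, 54 of 1968 refits lost the threshold and 2 reversed, both for Hist1h2af without vehicle library C: 48 h against 24 h with vehicle ran from -0.20 to 3.13, and glutamine-free medium against vehicle at 48 h from -2.95 to 0.38.

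With 2500 bases around the start, 4 members in place of 2 had an H3K27ac peak with CB-839. With IDR of at most 0.01 the H3K27ac lists of vehicle, CB-839 and glutamine-free medium were empty and gave no value, and 0 members in place of 3 had one with DON; for H3K27me3 with CB-839 0 in place of 1 did. Depth limits members near 1 CPM, most of all at 4 h. No paired analysis was possible for the peak lists because each merges its samples.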
